A study of Mus musculus with 22 samples.

Results

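Ionotropic receptors for glutamate, GABA, glycine and acetylcholine are assembled from subunits, and the genes of these subunits were examined as a set in mouse embryonic stem (ES) cells. Members were all autosomal protein-coding genes of the basic GENCODE M21 annotation whose symbol names an ionotropic glutamate (Gria, Grik, Grin, Grid), GABA-A (Gabr), glycine (Glra, Glrb) or nicotinic acetylcholine (Chrn) receptor subunit. The rule took 53 genes out of 20720 autosomal protein-coding genes, and 6 further matches on the X chromosome were left out. The set holds 17 glutamate, 16 GABA, 3 glycine and 16 acetylcholine receptor genes. The remaining member, Grid2ip, matches the rule by its symbol but does not encode a subunit, so 52 of the 53 members encode subunits.

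The data were lists of ChIP-seq peaks (regions enriched after chromatin immunoprecipitation and sequencing) from cells grown in serum with LIF. Wild-type E14 cells gave lists for MTF2, EZH2, H3K27me3 and H3K4me3, and cells labelled Mtf2 GT/GT, in which a gene-trap cassette disrupts the Mtf2 coding sequence on both alleles, gave lists for EZH2, H3K27me3 and H3K4me3. Each of the 7 lists stands for 2 libraries, so 14 of the 22 samples of the series were used. No MTF2 list of gene-trap cells was analysed here, and the labels of the gene-trap libraries used here name both E14, in the description, and Mtf2 GT/GT, as the cell line. Whether the gene-trap cells derive from E14 is not settled by these labels, so genotype and line cannot be told apart.

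Ionotropic receptors open an ion channel when a transmitter binds and carry fast synaptic signals in brain, spinal cord, autonomic ganglia and muscle. Polycomb repressive complex 2 (PRC2), with EZH2 as its catalytic subunit, places H3K27me3 on many developmental and neuronal genes in ES cells, and MTF2 is a Polycomb-like accessory subunit that binds CpG-rich DNA and helps bring PRC2 to it. H3K4me3 marks promoters, and promoters with both histone marks are called bivalent.

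A gene was counted as having a peak when a listed region came within 1 kb, upstream or downstream, of a protein-coding transcription start site (TSS). The wild-type lists held 6357 MTF2, 7213 EZH2, 6294 H3K27me3 and 27418 H3K4me3 peaks, and the gene-trap lists held 840 EZH2, 963 H3K27me3 and 26960 H3K4me3 peaks. The lists carry positions only, so read depth and peak height are unknown, and a missing peak can come from the depth or threshold of a list as well as from less signal. With 1 list per antibody and genotype there was no replicate spread, so no difference between genotypes or gene groups was tested, and the 95% intervals given are exact Clopper-Pearson intervals over genes. The stem cell label was read from promoters with H3K4me3 and without H3K27me3. That state was found at 13 of 14 pluripotency genes in both genotypes. It was found at 3 of 10 neuron marker genes in wild-type and 10 of 10 in gene-trap cells, and the counts went from 2 to 4 of 7 glia, from 0 to 4 of 8 fibroblast and from 0 to 2 of 8 endoderm markers. Over all genes the share in that state went from 48.0% in wild-type to 64.7% in gene-trap cells. The part of other cell types in the results was not tested. The Mtf2 promoter had H3K4me3 in both genotypes (21320 bp in wild-type and 3369 bp in gene-trap cells) and no PRC2 peak, which does not check the loss of the protein.

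For each gene the TSS with the highest CpG density within 500 bp was taken, which is not always the gene start. The 200 bases upstream of this TSS are shown for 8 members that carry the main contrasts below. They are GRCm38 reference sequence, written 5′ to 3′ on the strand of the gene, with each GCG and CGC in capitals. CGC is GCG read on the other strand, matches can overlap as in CGCG, and each contains a CpG. Grid1 (chr14:34819908-34820107, plus strand), Grin2b (chr6:136173126-136173325, minus strand) and Gabra5 (chr7:57509372-57509571, minus strand) are the 3 members with an H3K27me3 promoter peak in gene-trap cells. They hold 34, 3 and 35 capitalised GCG or CGC matches.
Grid1: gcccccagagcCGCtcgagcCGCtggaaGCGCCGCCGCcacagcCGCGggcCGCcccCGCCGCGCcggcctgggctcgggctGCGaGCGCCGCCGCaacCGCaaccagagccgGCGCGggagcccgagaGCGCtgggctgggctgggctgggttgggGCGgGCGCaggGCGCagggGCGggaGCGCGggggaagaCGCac
Grin2b: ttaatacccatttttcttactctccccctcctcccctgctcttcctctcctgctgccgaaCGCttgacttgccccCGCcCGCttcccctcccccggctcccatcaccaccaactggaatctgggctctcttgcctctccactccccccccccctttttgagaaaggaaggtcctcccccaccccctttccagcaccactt
Gabra5: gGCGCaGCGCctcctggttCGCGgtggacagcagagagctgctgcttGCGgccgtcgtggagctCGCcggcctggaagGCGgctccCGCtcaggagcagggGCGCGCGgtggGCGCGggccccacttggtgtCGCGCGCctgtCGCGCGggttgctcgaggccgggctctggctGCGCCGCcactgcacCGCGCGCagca

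Gabra2 (chr5:71095850-71096049, minus strand) and Gabrg1 (chr5:70842618-70842817, minus strand) are neighbours in a GABA-A cluster on chromosome 5, with and without PRC2 peaks. Chrna3 (chr9:55026563-55026762, minus strand) and Chrnb4 (chr9:55048780-55048979, minus strand) are neighbours in a nicotinic cluster on chromosome 9 with the same contrast. Grik3 (chr4:125490500-125490699, plus strand) is a CpG-rich promoter without an MTF2 peak. The matches number 17 and 0, then 6 and 2, then 29.
Gabra2: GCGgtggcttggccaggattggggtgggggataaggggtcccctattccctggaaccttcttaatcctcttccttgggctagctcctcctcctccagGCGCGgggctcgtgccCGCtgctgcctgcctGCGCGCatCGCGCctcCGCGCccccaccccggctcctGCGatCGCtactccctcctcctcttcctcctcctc
Gabrg1: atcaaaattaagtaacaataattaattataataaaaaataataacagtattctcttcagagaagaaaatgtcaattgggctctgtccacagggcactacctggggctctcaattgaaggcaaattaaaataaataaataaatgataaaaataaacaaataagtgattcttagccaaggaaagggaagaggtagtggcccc
Chrna3: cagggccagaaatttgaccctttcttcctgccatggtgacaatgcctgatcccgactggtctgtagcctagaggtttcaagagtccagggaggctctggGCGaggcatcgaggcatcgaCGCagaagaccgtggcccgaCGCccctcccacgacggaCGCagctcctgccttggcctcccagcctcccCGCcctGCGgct
Chrnb4: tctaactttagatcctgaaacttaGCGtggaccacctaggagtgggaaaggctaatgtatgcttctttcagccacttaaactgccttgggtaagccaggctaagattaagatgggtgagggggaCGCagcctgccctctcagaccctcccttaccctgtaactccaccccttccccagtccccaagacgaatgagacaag
Grik3: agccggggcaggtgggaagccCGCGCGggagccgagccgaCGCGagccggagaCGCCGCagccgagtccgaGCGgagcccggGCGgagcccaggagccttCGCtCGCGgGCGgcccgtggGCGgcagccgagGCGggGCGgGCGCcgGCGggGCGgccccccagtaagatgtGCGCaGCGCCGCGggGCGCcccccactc

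At least 1 GCG or CGC lay in this 200-base window at 43 of the 53 members (81.1%) and at 16787 of all 20720 genes (81.0%), with a median of 6 matches in each set.

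In wild-type cells 26 of the 53 members had an MTF2 promoter peak (49.1%, 95% interval 35.1 to 63.2), beside 16.4% of all autosomal genes. EZH2 was listed at the same 26 genes, beside 17.1% of all genes. H3K27me3 was listed at 29 members (54.7%, 40.4 to 68.4), beside 20.0% of all genes. H3K4me3 was listed at 36 members (67.9%, 53.7 to 80.1), beside 67.0% of all genes, so the members stood above the background in the PRC2 lists and close to it in the H3K4me3 list. MTF2, EZH2 and H3K27me3 came together at 24 members (45.3%), beside 15.2% of all genes.

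In gene-trap cells no member had an EZH2 promoter peak (0 of 53, upper limit 6.72%), beside 0.772% of all genes. H3K27me3 was listed at 3 members (5.66%, 1.18 to 15.7), beside 2.82% of all genes. H3K4me3 was listed at 37 members (69.8%, 55.7 to 81.7), beside 67.5% of all genes.

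**Figure D1:**
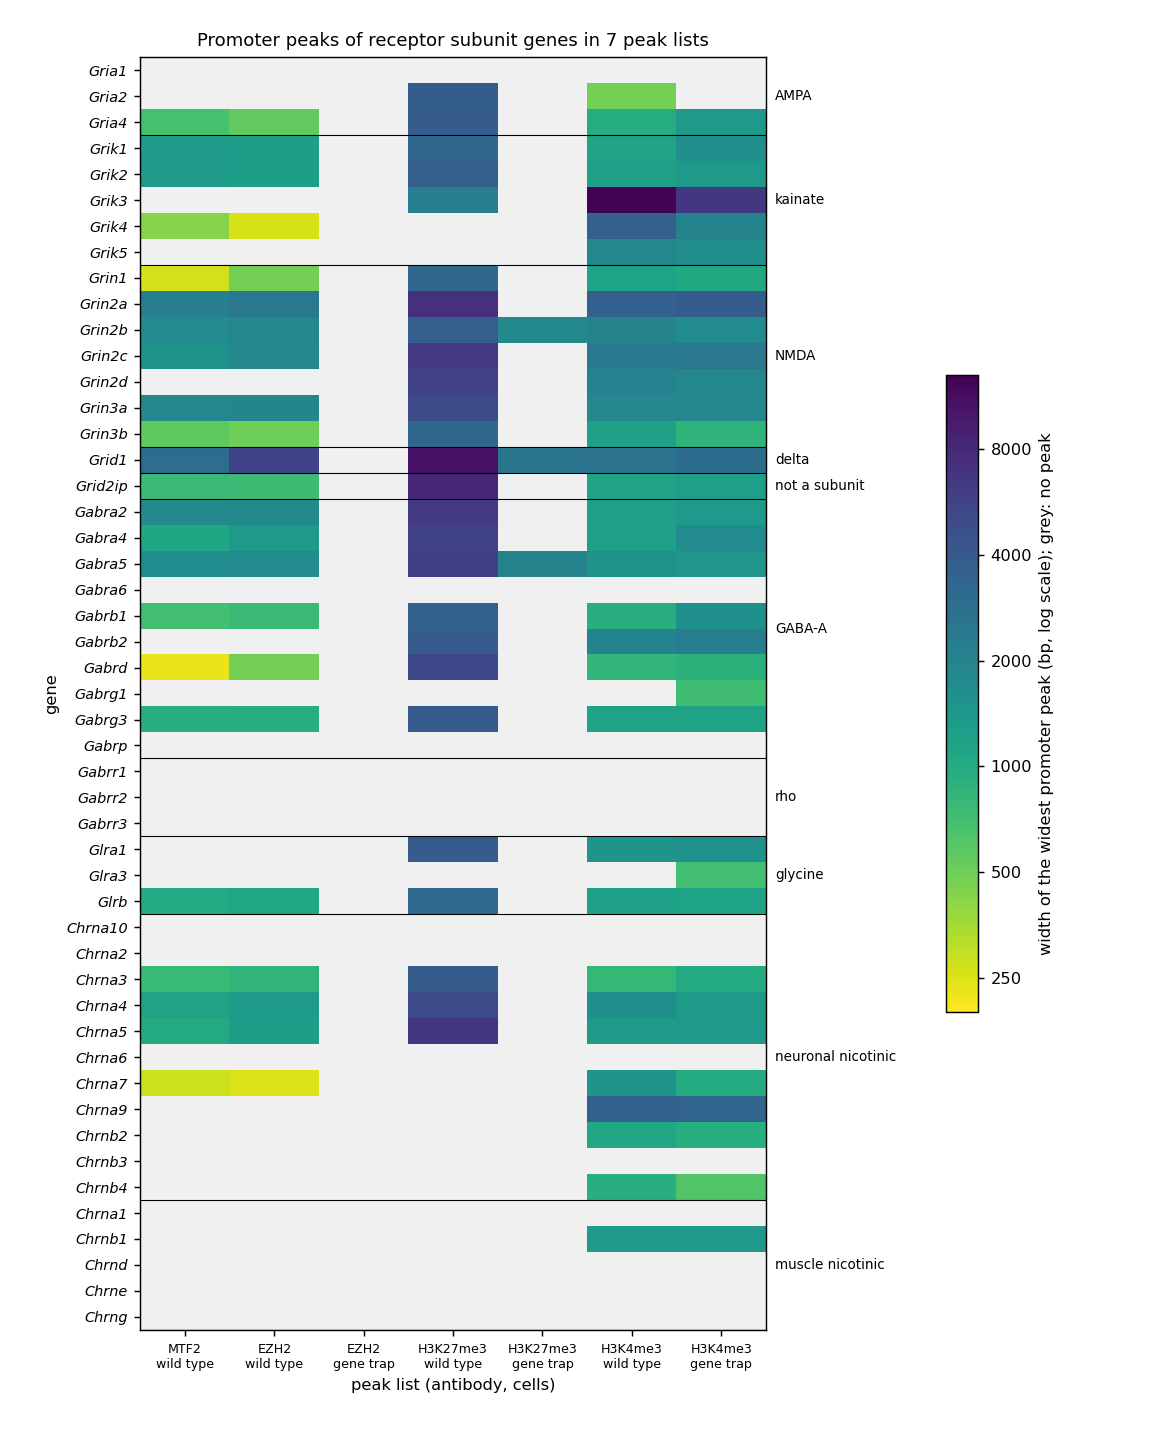
Width in bp (colour, log scale) of the widest promoter peak of 49 of the 53 genes (rows, grouped by subfamily) in each of the 7 peak lists (columns), with grey for no peak. The EZH2 column of gene-trap cells is empty, the H3K27me3 column of gene-trap cells holds Grin2b, Grid1 and Gabra5, and the rho rows are empty throughout.

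The classes differed in how many members carried PRC2 peaks, and the order was glutamate, GABA, glycine and acetylcholine for MTF2. The MTF2 count was 12 of 17 glutamate genes (70.6%, 44.0 to 89.7), 8 of 16 GABA genes (50.0%, 24.7 to 75.3), 1 of 3 glycine genes (33.3%) and 4 of 16 acetylcholine genes (25.0%, 7.27 to 52.4). The intervals of neighbouring classes overlap, and so do those of the glutamate and acetylcholine classes. For H3K27me3 the counts were 14 of 17, 9 of 16, 2 of 3 and 3 of 16, beside 20.0% of all genes. The acetylcholine share (18.8%, 4.05 to 45.6%) was close to that of all genes. Its interval does not overlap that of glutamate (82.4%, 56.6 to 96.2%). For H3K4me3 the counts were 16, 9, 2 and 8 (94.1, 56.2, 66.7 and 50.0%), beside 67.0% of all genes.

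**Figure D2:**
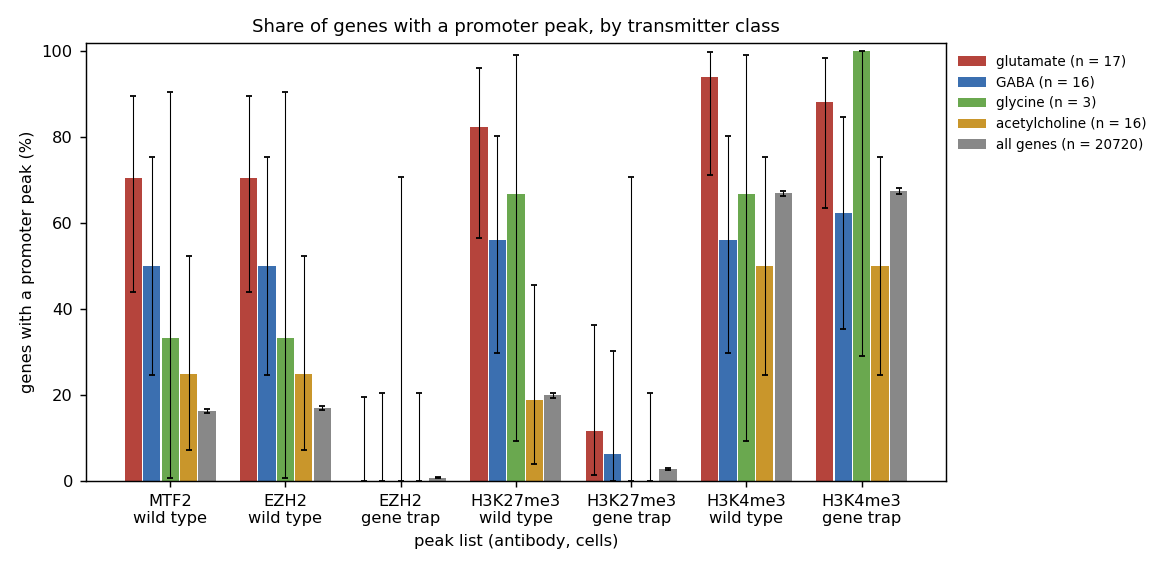
Percentage of genes with a promoter peak (vertical axis) in each of the 7 lists, for the 4 transmitter classes and all 20720 autosomal genes (bars), with exact 95% intervals over genes (lines). In the wild-type MTF2 list the bars run from 70.6% for glutamate to 25.0% for acetylcholine, beside 16.4% for all genes.

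Among the glutamate receptors, all 7 NMDA receptor genes were bivalent in wild-type cells. NMDA receptors need glutamate and glycine to open and pass calcium. Grin1, the subunit present in every NMDA receptor, had an MTF2 peak of 260 bp, an EZH2 peak of 478 bp, an H3K27me3 peak of 3162 bp and an H3K4me3 peak of 1146 bp. Grin2a, which encodes a glutamate-binding subunit, carried the widest peaks of the subfamily, with 3 MTF2 peaks of 1094, 541 and 2195 bp, 3 EZH2 peaks of 1155, 547 and 2439 bp and an H3K27me3 peak of 7255 bp. None of these PRC2 peaks of Grin1 and Grin2a had a counterpart at the promoter in gene-trap cells, where H3K4me3 peaks of 1032 bp at Grin1 and 3888 bp at Grin2a were listed.

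Grin2b, the glutamate-binding subunit that prevails before birth, had an MTF2 peak of 1739 bp, an EZH2 peak of 1874 bp and an H3K27me3 peak of 3661 bp, and 1753 bp of H3K27me3 remained listed in gene-trap cells. Grin2c, a subunit of cerebellar granule cells, had 1555 bp of MTF2 and 6517 bp of H3K27me3. The glycine-binding subunits Grin3a and Grin3b had MTF2 peaks of 1852 and 564 bp and H3K27me3 peaks of 4956 and 3171 bp. Grin2d was the NMDA gene without MTF2 and EZH2 at its promoter, and its H3K27me3 peak of 5486 bp also reached the promoter of the neighbouring gene Kdelr1. Grin2d instead had an MTF2 peak of 2170 bp and an EZH2 peak of 2393 bp within the gene, at 43759 and 43532 bp from its start.

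Of the 3 autosomal AMPA receptor genes, which encode the channels of most fast excitatory transmission, each showed a different pattern. Gria1 had no promoter peak in any of the 7 lists. Gria4 had MTF2 (679 bp), EZH2 (541 bp), H3K27me3 (3881 bp) and H3K4me3 (983 bp). Gria2, the subunit whose edited form makes AMPA receptors impermeable to calcium, had H3K27me3 (3816 bp) and a narrow H3K4me3 peak (482 bp) at the promoter. MTF2 and EZH2 peaks of 858 and 873 bp lay 1601 and 1572 bp inside Gria2, just outside the window, and a gene-trap H3K4me3 peak of 1077 bp lay at 1423 bp. Gria2 was the 1 member that lost its H3K4me3 promoter peak by the window used.

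Delta receptors share the fold of glutamate receptors and act as synapse organisers with cerebellins. Grid1 had MTF2 peaks of 2940 and 1113 bp, an EZH2 peak of 5610 bp and an H3K27me3 peak of 10600 bp, which were the widest MTF2, EZH2 and H3K27me3 promoter peaks of the 53 members. Grid2ip had H3K27me3 peaks of 1776, 3564 and 8044 bp with MTF2 peaks of at most 756 bp.

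The kainate receptor genes, whose products tune synapses before and after the cleft, showed 4 combinations of peaks. Grik1 and Grik2, the low-affinity subunits GluK1 and GluK2, were bivalent with MTF2 and EZH2. Grik1 had an MTF2 peak of 1297 bp and an H3K27me3 peak of 3232 bp. Grik2 had MTF2 peaks of 1325 and 675 bp and H3K27me3 peaks of 2938 and 3687 bp. Grik4, a high-affinity subunit, had narrow MTF2 (430 bp) and EZH2 (256 bp) peaks without H3K27me3 and shared this combination with Chrna7 alone among the members. Grik3 had the narrowest H3K27me3 peak of the 29 (2187 bp), the widest H3K4me3 peak of the set (12615 bp) and neither MTF2 nor EZH2, and Grik5 had H3K4me3 alone (1848 bp).

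GABA-A receptors are the main inhibitory channels of the brain, built from alpha and beta subunits with a gamma or delta subunit. Of the 13 GABA-A genes, 8 carried MTF2 and EZH2 and 9 carried H3K27me3 and H3K4me3. Among the alpha subunits, Gabra2 had the widest MTF2 peak of the class (1805 bp) with 6378 bp of H3K27me3, and Gabra5, abundant in hippocampus, had 1717 and 5862 bp. Gabra4 had MTF2 peaks of 230 and 1105 bp with 5577 bp of H3K27me3. Gabra6, the alpha subunit of cerebellar granule cells, had no peak in any list.

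Gabrb1 encodes a beta subunit; beta subunits help to form the GABA site. Gabrb1 had 696 bp of MTF2 and 3535 bp of H3K27me3. Gabrb2, another beta subunit gene, had H3K27me3 (3895 bp) and H3K4me3 (1961 bp) without MTF2 or EZH2. Of the gamma subunits, which anchor receptors at synapses, Gabrg3 had MTF2 (945 bp) and H3K27me3 (3975 bp), while Gabrg1 had no wild-type promoter peak. Gabrd, the subunit of receptors outside synapses, had a single MTF2 peak of 227 bp beside 5211 bp of H3K27me3. This MTF2 peak was narrower than the widest MTF2 peak of any other member that had one. Gabrp, the pi subunit, and the 3 rho genes Gabrr1, Gabrr2 and Gabrr3, known from retina, had no promoter peak in any of the 7 lists.

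Glycine receptors are inhibitory channels of spinal cord and brainstem. Glrb, the beta subunit that binds the scaffold gephyrin, had MTF2 (1015 bp), EZH2 (1087 bp), H3K27me3 (3116 bp) and H3K4me3 (1193 bp). Glra1, the main adult alpha subunit, had 3947 bp of H3K27me3 and 1489 bp of H3K4me3 without MTF2 or EZH2. Glra3 had no wild-type promoter peak and an H3K4me3 peak of 696 bp in gene-trap cells.

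Nicotinic receptors of neurons and of muscle are encoded by separate genes. MTF2 and EZH2 were listed at 4 of the 11 neuronal genes, Chrna3, Chrna4, Chrna5 and Chrna7, and at 0 of the 5 muscle genes (upper limit 52.2%). Chrna4, the alpha subunit of the main brain receptor, had the widest MTF2 peak of the class (1169 bp), an EZH2 peak of 1321 bp and an H3K27me3 peak of 4993 bp. Chrna7, which forms channels from a single kind of subunit, had MTF2 and EZH2 peaks of 277 and 251 bp and an H3K4me3 peak of 1504 bp without H3K27me3. Chrna9 (3571 bp), known from cochlear hair cells, Chrnb2 (1065 bp), the partner of Chrna4, Chrnb4 (951 bp) and the muscle beta subunit Chrnb1 (1350 bp) had H3K4me3 and no PRC2 peak. The muscle genes Chrna1, Chrnd, Chrne and Chrng and the neuronal genes Chrna2, Chrna6, Chrna10 and Chrnb3 had no wild-type promoter peak.

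Altogether 17 members had no wild-type promoter peak of any kind (32.1%), beside 32.0% of all genes. H3K4me3 alone was found at 5 (9.43%; Grik5, Chrna9, Chrnb1, Chrnb2 and Chrnb4), beside 46.9% of all genes. Another 5 had H3K27me3 with neither MTF2 nor EZH2 (9.43%; Gria2, Grik3, Grin2d, Gabrb2 and Glra1), beside 3.27% of all genes. These last 5 are 5 of the 29 members with H3K27me3, and over all genes 16.4% of the promoters with H3K27me3 lacked MTF2 and EZH2. Every member with H3K27me3 also had H3K4me3, so 29 members were bivalent in wild-type cells (54.7%), beside 18.9% of all genes.

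At the 24 members with MTF2, EZH2 and H3K27me3, the widest MTF2 and EZH2 peaks lay on nearly the same bases. Their shared length over their joint length had a median of 89.2%, from 21.6% at Gabrd to 98.9% at Gabra5, and the median over 3133 genes with all 3 on overlapping peaks was 88.1%. The MTF2 peak spanned a median of 23.8% of the H3K27me3 peak around it, beside 24.9% over all such genes. Its centre lay a median of 170 bp from the nearest TSS (14 to 1084 bp), beside 316 bp. Median widths of the widest promoter peak were 1010 bp for MTF2, 1256 bp for EZH2 and 3975 bp for H3K27me3, beside 1113, 1159 and 4244 bp over all marked genes. For H3K4me3 the members had a median of 1345 bp and all marked genes 2490 bp.

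The comparison of gene-trap with wild-type cells asked which members kept PRC2 marks when Mtf2 was disrupted. EZH2 was kept at 0 of the 26 members (upper limit 13.2%), and over all genes 4.34% kept it. No gene-trap EZH2 peak lay anywhere inside the wild-type EZH2 peaks of these 26 genes. H3K27me3 was kept at 3 of the 29 members (10.3%, 2.19 to 27.4), Grid1, Grin2b and Gabra5, and over all genes 14% kept it, so the members' share was not set apart from the background at this number of genes. No member gained EZH2 or H3K27me3, and over all genes 0.0349% and 0.0422% of promoters without the mark gained it.

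The gene-trap H3K27me3 peaks that reached these 3 promoters lay downstream of the TSS, inside the wild-type H3K27me3 peak of the gene. At Grid1 the widest peak ran over chr14:34820408-34823011, from 300 to 2903 bp past the TSS, within the wild-type 10600 bp. A second gene-trap peak of 2236 bp inside the same wild-type peak lay upstream, from 1153 to 3388 bp before the TSS, and both together covered 45.7% of it. At Grin2b the peak ran over chr6:136170693-136172445, from 680 to 2432 bp past the TSS, and covered 47.9% of the wild-type peak. At Gabra5 it ran over chr7:57507299-57509304, from 67 to 2072 bp past the TSS, and covered 34.2%. Positions are GRCm38. The wild-type MTF2 peaks overlapped 95.4% of the gene-trap peak at Grid1, 59.1% at Grin2b and 34.5% at Gabra5, and the wild-type EZH2 peaks overlapped 100%, 66.1% and 35.1%. The overlap percentages for Grid1 are of its downstream peak, and no gene-trap H3K27me3 peak contained the TSS of these genes.

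The width of the wild-type peak went with keeping it over all genes. When genes with H3K27me3 were split by width into 5 classes of equal size, the kept share rose from 0.846% in the narrowest class through 2.30, 5.20 and 12.7% to 48.7% in the widest. The 29 members fell into these classes as 1, 7, 8, 9 and 4. The kept genes lay in class 2 (Grin2b), class 4 (Gabra5) and class 5 (Grid1), counted from the narrowest. Grid2ip and Grin2a also had peaks in the widest class, and their promoters held no gene-trap H3K27me3 peak. For EZH2 the kept share over all genes was at most 0.563% in the narrower 4 classes and 20.8% in the widest, where Grid1 and Grin2a were the only members.

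H3K4me3 was kept at 35 of the 36 members (97.2%, 85.5 to 99.9), beside 98.8% of all genes. Gabrg1 (719 bp) and Glra3 (696 bp) gained a peak, 2 of the 17 members without one, beside 4.02% of all such genes. The bivalent count therefore went from 29 to 3 members (5.66%), beside 2.78% of all genes in gene-trap cells. Counting these 2 histone marks only, members with H3K4me3 and no H3K27me3 went from 7 (13.2%) to 34 (64.2%), beside 48.0 and 64.7% of all genes. The 7 are the 5 above with Grik4 and Chrna7. Members with neither histone mark went from 17 to 16 (32.1 to 30.2%), beside 32.0 and 32.5% of all genes.

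Where EZH2 was lost, H3K4me3 widths at the members moved little. Over the 26 genes the widest H3K4me3 peak had a median of 1234 bp in wild-type and 1390 bp in gene-trap cells, with a median log2 ratio of 0.05. It was wider in gene-trap cells at 17 of the 26 (65.4%), beside 49.4% of the 3349 genes that lost EZH2 and kept H3K4me3, whose median log2 ratio was -0.00. Of the 5 members with neither EZH2 nor H3K27me3, 1 was wider, and over all such genes 18.9% were wider with a median log2 ratio of -0.19. The log2 ratio was 0.78 at Gabrb1 (from 930 to 1595 bp). Among the 35 members with a peak in both lists the ratio was lowest at Grik3 (-0.93, from 12615 to 6603 bp). This ratio takes the widest peak only. Another gene-trap H3K4me3 peak of 2967 bp, outside the promoter window, lay inside the same wild-type peak of Grik3. Grik3 had no EZH2 promoter peak in wild-type cells. The ratio was next lowest at Grik4 (-0.84, from 3614 to 2012 bp), which lost EZH2.

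**Figure D3:**
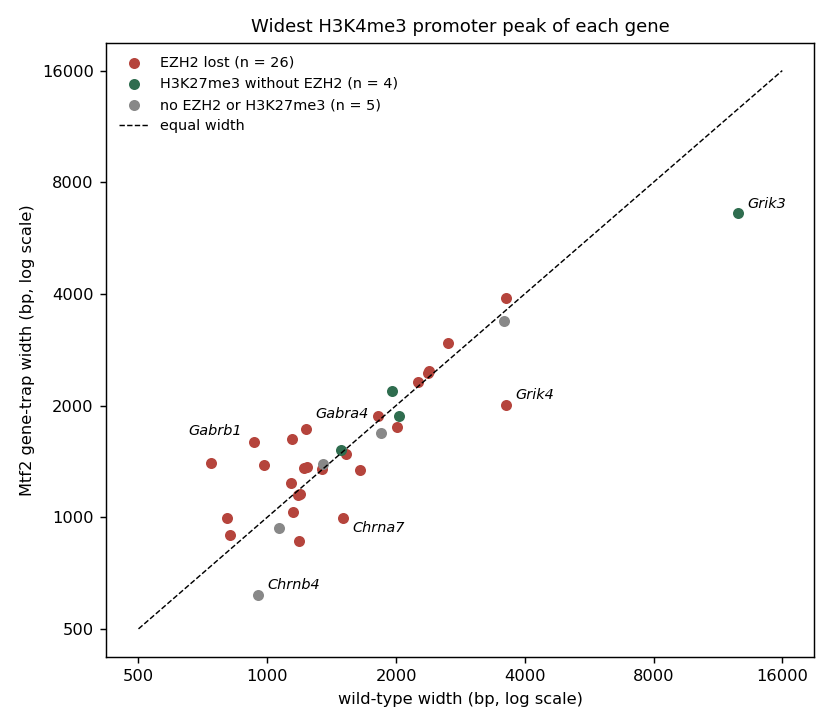
Width in bp of the widest H3K4me3 promoter peak in wild-type (horizontal axis) and gene-trap cells (vertical axis), both on log scales, for the 35 members with a peak in both lists, coloured by their PRC2 peaks. Of the 26 genes that lost EZH2, 17 lie above the line of equal width, and Grik3 lies furthest to the right.

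Many members sit in clusters. With gaps of at most 500 kb between gene bodies, 22 members formed 8 clusters and 31 stood alone. MTF2 was listed at 10 of the 22 and 16 of the 31, and H3K27me3 at 12 and 17. Within clusters, PRC2 peaks were confined to the promoters of some members, apart from 1 MTF2 and 1 EZH2 peak inside Gria2, and no 2 members shared a peak.

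The chromosome 5 cluster of Gabrg1, Gabra2, Gabra4 and Gabrb1 spans 1398 kb (chr5:70751047-72149037). Gabra2, Gabra4 and Gabrb1 carried MTF2, EZH2 and H3K27me3, with 3.84, 3.92 and 15.5 kb covered in the cluster, while Gabrg1 at its edge carried none. In gene-trap cells no EZH2 or H3K27me3 peak was listed in the cluster. H3K4me3 covered 6.75 kb in wild-type and 7.98 kb in gene-trap cells, where all 4 genes had a peak.

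The chromosome 9 cluster of Chrna5, Chrna3 and Chrnb4, which encodes the receptor of autonomic ganglia, spans 67.9 kb. Chrna5 and Chrna3 carried MTF2 (1006 and 780 bp), EZH2 (1263 and 849 bp) and H3K27me3 (6627 and 3840 bp), and Chrnb4 carried H3K4me3 alone. H3K27me3 covered 8.34 kb in wild-type and 0 kb in gene-trap cells, and H3K4me3 covered 3.10 and 2.96 kb. These lengths are counted within the cluster and 1 kb to each side. The H3K27me3 peak of Chrna5 begins before that, so only part of it is counted. On chromosome 3, Gria2 and Glrb (232 kb) had H3K27me3 at each promoter and an MTF2 promoter peak at Glrb. Chrnd and Chrng on chromosome 1, Gabrr2 and Gabrr1 on chromosome 4 and Chrnb3 and Chrna6 on chromosome 8 had no PRC2 peak.

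**Figure D4:**
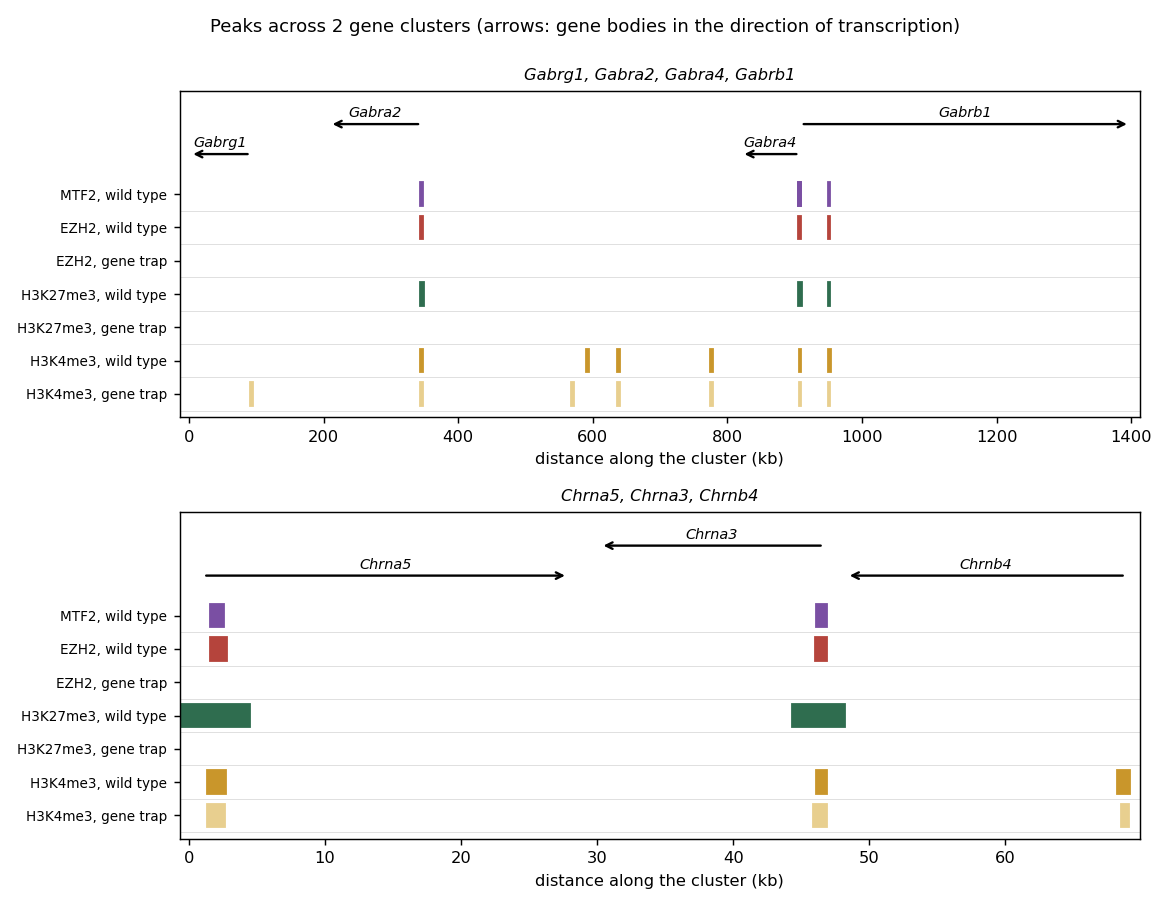
Peaks of the 7 lists (coloured blocks, 1 row per list) along 2 clusters, Gabrg1 to Gabrb1 and Chrna5 to Chrnb4, by distance in kb from 1 kb before the cluster, with arrows for gene bodies in the direction of transcription. Narrow peaks are drawn at a minimum width to be visible. PRC2 blocks stand at separate promoters, with none at Gabrg1 and Chrnb4, and no gene-trap EZH2 or H3K27me3 block is seen. At Gabrb1 the blocks stand inside the arrow, at a protein-coding start site downstream of the annotated gene start.

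CpG density, taken in the richest window within 500 bp of any TSS of a gene, went with the marks. The 26 members with MTF2 and EZH2 had a median of 6.84 CpG per 100 bp (2.30 to 13.09), beside 7.19 over all genes of that kind. Members with H3K27me3 but neither protein had 4.60 (all genes 3.80), those with H3K4me3 alone 3.70 (all genes 6.49), and the 17 members with no peak 1.20 (0.60 to 2.40; all genes 0.90). Over all 53 members the median was 4.60, beside 4.90 over all genes. By class the medians were 5.29 for glutamate, 4.60 for glycine, 3.05 for GABA and 2.15 for acetylcholine. H3K27me3 shares followed this order (82.4, 66.7, 56.2 and 18.8%), and MTF2 and EZH2 shares did not, with GABA (50.0%) above the 3 glycine genes (33.3%).

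When all genes were split by CpG density into 5 classes of equal size, MTF2 was listed at 0 of 5, 1 of 16, 9 of 15, 11 of 11 and 5 of 6 members from the poorest to the richest class. Over all genes the shares were 0.338, 5.41, 22.2, 24.2 and 29.9%. In the upper 3 classes together MTF2 was listed at 25 of 32 members, beside 25.4% of all genes, and in the upper 2 at 16 of 17, beside 27%. The exception there was Grik3, with 12.49 CpG per 100 bp. Gabrb1 (2.30 CpG per 100 bp) was the member with MTF2 in the lower 2 classes. Its MTF2 peak lay 736 bp from the TSS, outside the 500 bp counted, and held 5.46 CpG per 100 bp. These are descriptions of genes chosen by name, and no test was made of them.

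**Figure D5:**
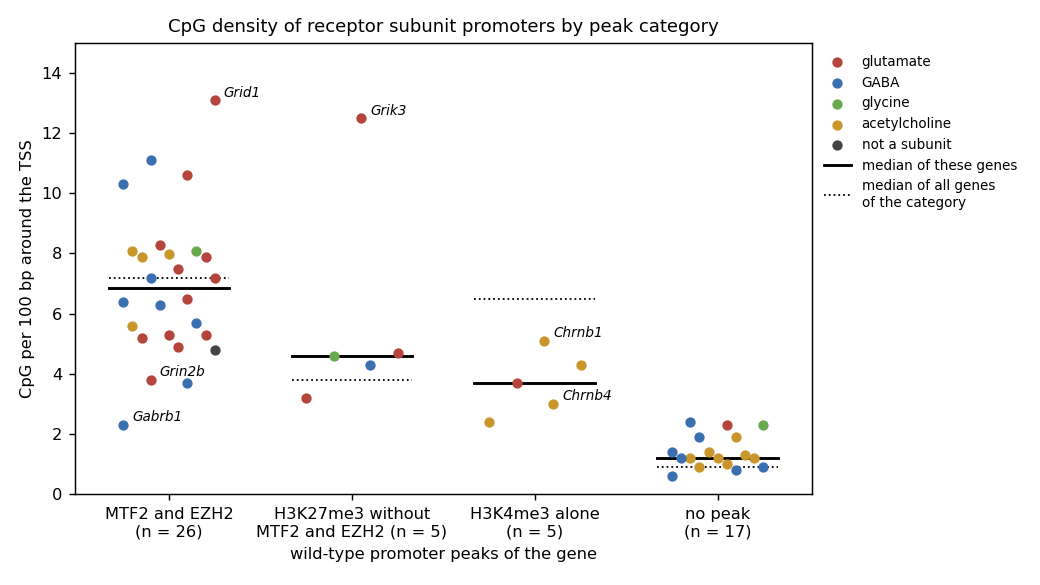
CpG per 100 bp around the TSS (vertical axis) of each of the 53 genes (points, coloured by transmitter class), by the wild-type peaks at its promoter (horizontal axis). Solid lines are medians of these genes and dotted lines medians of all genes of the same kind, 6.84 and 7.19 for MTF2 and EZH2, 1.20 and 0.90 for no peak.

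Away from all promoters of coding genes, MTF2 and EZH2 peaks inside the members' gene bodies were sparser than over all genes. H3K27me3 peaks there were about as dense as over all genes. There were 9 MTF2 peaks in 8 genes (0.969 per Mb of gene body, beside 1.44 over all genes), 8 EZH2 peaks (0.861, beside 1.67) and 10 H3K27me3 peaks in 7 genes (1.08, beside 1.09). Several stood together. Chrna10, a hair cell subunit without a promoter peak, had MTF2 (532 bp), EZH2 (552 bp), H3K27me3 (3222 bp) and H3K4me3 (599 bp) peaks inside the gene, the MTF2 peak 3087 bp from the start. Grid1 had MTF2 (473 bp), EZH2 (400 bp) and H3K27me3 (2876 bp) peaks, the MTF2 peak 76013 bp from its start. Grik4 and Grik5 had such groups 423361 and 61486 bp from their starts.

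In gene-trap cells no EZH2 peak was left inside the members' bodies. The only H3K27me3 peak there was a peak of 1939 bp at Grin2c, 17095 bp from its start, which ran past the end of the gene. That is 0 and 0.108 per Mb, beside 0.382 and 0.165 over all genes. H3K4me3 peaks inside the bodies numbered 34 in 15 genes in wild-type and 37 in 21 genes in gene-trap cells, or 3.66 and 3.98 per Mb, while over all genes they went from 7.74 to 6.01 per Mb. Grik3 held 8 of the 34 and 4 of the 37, and the 4 include the peak of 2967 bp that lay inside its wild-type promoter peak.

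Genes that work with these receptors were read the same way, in lists chosen with earlier results of these data known. For comparison, the shares over all genes were 16.4% for MTF2, 17.1% for EZH2 and 20.0% for H3K27me3. Of all genes with the wild-type peak, 4.34% kept EZH2 and 14% kept H3K27me3. Of 15 metabotropic receptors for the same transmitters, which signal through G proteins, 11 had MTF2 and EZH2 and 12 had H3K27me3. EZH2 was kept at 0 of 11 and H3K27me3 at 3 of 12, Grm2 (from 3324 to 904 bp), Grm4 (from 16608 to 2007 bp) and Chrm3 (from 5134 to 1607 bp). Of 29 auxiliary subunits and scaffolds of glutamate receptors, 18 had MTF2 and 21 had H3K27me3, which was kept at Neto2 (from 6947 to 2219 bp), an auxiliary subunit of kainate receptors, and Cbln1 (from 8745 to 3395 bp), a cerebellin. Of 8 scaffold genes of GABA-A and glycine receptors 1 had MTF2 and 4 had H3K27me3, and of 8 genes of acetylcholine receptor assembly and clustering 3 had each. H3K27me3 was kept at 0 of 4 and 0 of 3 genes of these lists, too few to set either apart from all genes. Among 13 other ligand-gated channels, 4 had MTF2 and 5 had H3K27me3, kept at Asic4 (from 4155 to 3624 bp), an acid-sensing channel relative.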

How the data were processed

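ChIP-seq was carried out on mouse ES cells, and each of the 7 deposited peak lists gives chromosome, start and end of regions, with no count, height or score. CASAVA, BWA 0.7.10-r789, MACS2 2.7 and the mm10 (GRCm38) build are named in the submitters' processing notes. The role of each, the threshold and the control are not given in the sources used here. The words MAnorm and unbiased stand in the names of the deposited lists, with no account of what was done. Both libraries of a group share 1 list, so replicates could not be compared, and depth is unknown.

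Starts were converted to positions counted from 1. A promoter was the window reaching 1 kb to each side of a protein-coding TSS in GENCODE M21 basic, and a peak counted with an overlap of at least 1 bp. A mark was kept when peaks of both genotypes touched the window, lost when the gene-trap list had none, and gained when it alone had one. Where a gene had several peaks, the widest gave its width. Clusters joined members with gaps of at most 500 kb. CpG and GCG were counted in GRCm38, and the highest TSS window within 500 bp was used. Python 3.11.15, NumPy 2.4.6 and SciPy 1.17.1 were used, and the overlap calls were tested on simulated data. No significance test was made, since there are no replicates.

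Values of some members and clusters are not reported here, though they stand in the counts. Members with gene-trap PRC2 marks, the widest MTF2 peak of each subfamily and members of clusters were described in detail. In the related lists, genes with gene-trap EZH2 or H3K27me3 were named. Members and lists were chosen with earlier results of these data known. Alternatives were other promoter windows, overlaps, minimum widths, definitions of kept, cluster gaps and sequence windows, and the set without Grid2ip.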

Additional observations from a re-analysis of the deposited data

How the results depend on the processing

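No paired analysis was possible because each list stands for both libraries of its group; for the same reason no replicate could be left out. Wild-type member counts of all 4 antibodies stayed within 1.5 times the values given under every alternative run, and EZH2 was kept at 0 members in each. When the TSS itself had to lie inside the peak, the members with gene-trap H3K27me3 went from 3 to 0, and so did those that kept it, since the 3 peaks begin downstream. With a window of 0.5 kb, Grin2b dropped out and 2 remained. With 2.5 kb, Gria2 joined the MTF2 and EZH2 genes and kept H3K4me3. With CpG counted within 250 bp of the TSS, the members with MTF2 in the lower 2 classes of CpG density went from 1 to 2. Over all genes, the kept EZH2 count fell from 154 to 39 with the TSS inside the peak and to 60 with peaks of at least 500 bp, and kept H3K27me3 fell from 577 to 304 with the TSS inside. Depth, peak height and threshold are unknown, which limits what a missing peak shows.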
